A study of Mus musculus with 9 samples.

Results

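Transporters that carry amino acids across the plasma membrane, and whose genes are known to respond to amino acid shortage and other stress, were examined in 3T3-L1 adipocytes. The group holds 10 genes (Slc7a1, Slc7a3, Slc7a5, Slc7a11, Slc3a2, Slc1a4, Slc1a5, Slc38a1, Slc38a2 and Slc6a9), chosen by name, with earlier results of these data known. All probe sets assigned to exactly 1 of these symbols were taken. That gave 20 probe sets of the 45037 on the array that are not controls, and all 10 of the 18193 genes named on the array.

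The cells were 3T3-L1, preadipocytes of mouse origin that become fat cells under hormonal induction, so all arrays come from 1 established line. The cells were given phenformin, conjugated linoleic acid (CLA) or, as the control, linoleic acid (LA), with 3 arrays in each group. Phenformin, a biguanide, slows the mitochondrial respiratory chain and so activates AMP-activated protein kinase, and CLA is an isomer of LA with conjugated double bonds. The labels give no dose, no time and no CLA isomer, and do not say if LA was present with phenformin, so the treatments are not known to be matched. The labels call the arrays of a group biological replicates without saying what separated them, and p-values measure the spread between these arrays.

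When amino acids run short, or when the endoplasmic reticulum or mitochondria are disturbed, kinases phosphorylate the translation factor eIF2, and the transcription factor ATF4 is then made and binds composite C/EBP-ATF elements in its target genes. Several amino acid transporters are textbook targets of ATF4, and Slc7a11 is also a target of the oxidative stress factor NRF2. In fat cells these carriers supply leucine to mTORC1 signalling, cystine to glutathione synthesis, and serine and glycine to one-carbon metabolism.

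Levels are given as log2 expression values, and each gene stands by its brightest probe set, the one with the highest mean over the 9 arrays. Differences between groups are log2 fold changes ± SE from a single limma fit over all arrays, with p-values adjusted by Benjamini-Hochberg over 45037 probe sets and a threshold of 0.05. The background level of an array was the 95th percentile of 27 control probe sets for bacterial transcripts, between 3.68 and 4.1998, and a probe set at or below it on all arrays of a group is called not above background there. Levels of different probe sets are not on a common scale and were not compared with each other.

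Most of these transporters were higher under either treatment than in LA. In phenformin against LA, 7 of the 10 genes rose and 0 fell, where 13.7% of all 18193 genes rose, 5.11% fell and 18.8% were called in all. In CLA against LA, 7 rose and 0 fell, where 12.6% of all genes rose, 7.58% fell and 20.2% were called in all. The arrays of the groups did not overlap for 8 of the 10 genes in phenformin against LA and for 7 in CLA against LA, where 34.9% and 32.9% of all genes had no overlap. The median log2 fold change over the 10 genes was 1.07 for phenformin and 1.21 for CLA, against 0.01 and 0.049 over all genes. The 10 genes were chosen with earlier results of these data known, so these contrasts with all genes are descriptions and not a test. Slc7a11, Slc7a5, Slc7a1, Slc3a2 and Slc6a9 rose at least 2-fold in each comparison, 5 genes of the 10. At that size, in either direction, 2534 of all 45037 probe sets were called in phenformin and 2613 in CLA against LA. These are counts of probe sets and not of genes. Slc1a4 and Slc38a2 rose by smaller amounts. Slc7a3, Slc1a5 and Slc38a1 did not pass against LA in either comparison, so their brightest probe sets gave no call to match the name stress-responsive. For Slc1a5 a dimmer probe set, and the mean of both, was called in phenformin against LA. The comparisons with LA use the same 3 LA arrays, so their values are given side by side and their likeness is not offered as a result.

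**Figure D1:**
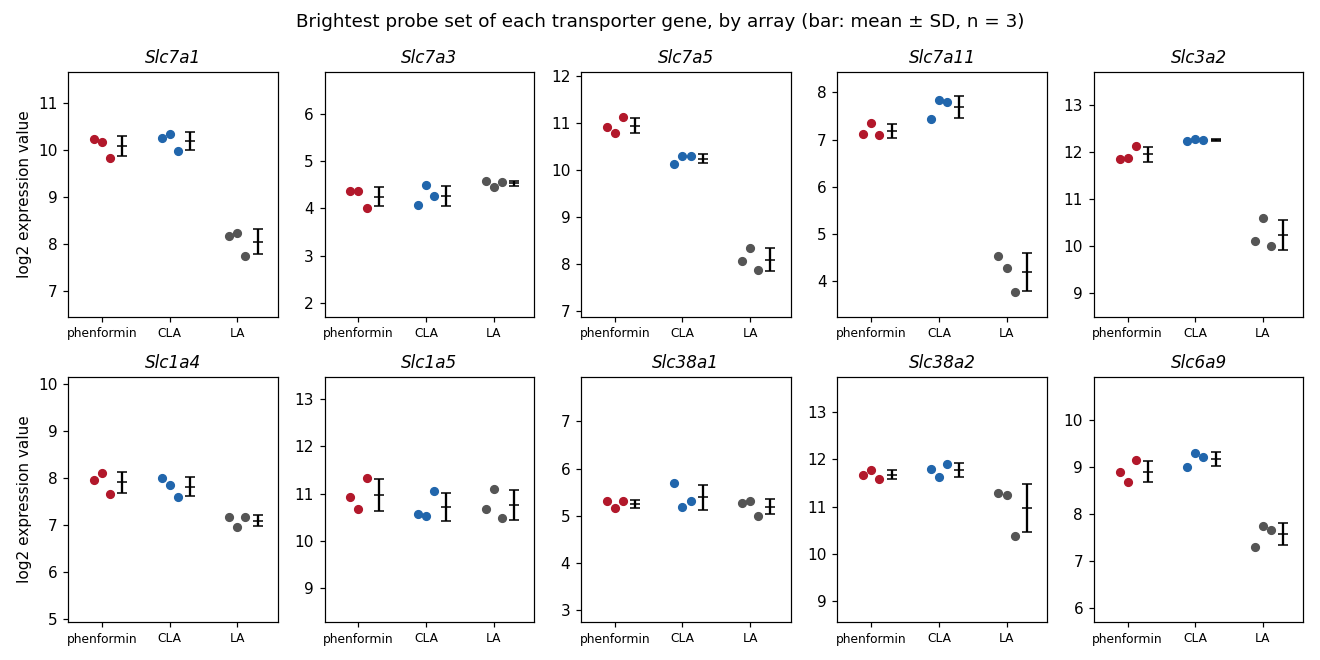
Log2 expression value (y axis) of the brightest probe set of each of the 10 transporter genes in the phenformin, CLA and LA arrays; each point is 1 array and the black bar is the mean ± SD of 3. All panels span the same number of log2 units, and Slc7a11 has the widest gap, with phenformin arrays between 7.09 and 7.36, CLA arrays between 7.43 and 7.85 and LA arrays between 3.75 and 4.53.

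The cells carried adipocyte transcripts in all groups, since 7 of 7 adipocyte markers measured were above background in each. Their summed level on the linear scale ranged from 76392 to 84517 in phenformin arrays, from 77044 to 84538 in CLA arrays and from 48500 to 88659 in LA arrays. Among these adipocyte markers, Pparg had -1.25 ± 0.19 in CLA (limma adjusted p = 0.00122) and -0.58 ± 0.19 in phenformin against LA, which did not pass (0.0619). Cidec rose by 0.98 ± 0.16 in CLA and 0.77 ± 0.16 in phenformin (0.00227 and 0.0094). With the 3' minus 5' covariate 0 of the 7 rose in either comparison. Markers of preadipocytes and fibroblasts moved with the transporters. Of the 8 measured, 6 rose in phenformin and 7 in CLA against LA, where 13.7% and 12.6% of all genes rose. The summed level of these 8 ranged from 32558 to 37051 in phenformin arrays and from 31687 to 38350 in CLA arrays. In LA arrays it ranged from 10077 to 11055. Of these 8, Cd34 was not above background in any group. In such bulk samples, fewer cells of a type and less RNA per cell cannot be told apart, and the part of these cells in the transporter differences was not tested. Of the 8 macrophage markers, Cd68, Csf1r, Cd14, Lyz2 and Fcgr1 were above background on every array, and Ptprc and Itgam in no group. Of the 5 endothelial markers, Kdr was above background on every array, and Tek and Vwf in no group. Of the 5 muscle markers, Myod1, Acta1 and Ckm were above background on every array, and Myf5 in no group. The 3' minus 5' difference of the beta-actin control, which grows as RNA or labelled target is shortened, was 0.56 ± 0.09 in phenformin, 0.53 ± 0.10 in CLA and 1.28 ± 0.39 in LA (SD, n = 3 each). That of the pyruvate carboxylase control, used as the covariate, was 3.95 ± 0.60 in phenformin, 4.02 ± 0.63 in CLA and 5.35 ± 0.43 in LA. In neither control did an LA array overlap the treated arrays. Array medians lay between 5.02 and 5.14, and the 99th percentile was lowest in LA replicate 3, at 11.63, with 12.20 to 12.48 on the other arrays. Hybridization controls averaged 10.95 ± 0.50 in phenformin, 11.94 ± 0.82 in CLA and 9.93 ± 0.21 in LA (SD, n = 3 each), and no LA array overlapped the treated arrays. They moved with the transporter differences, and their part in them was not tested. Fits were made with a 3' minus 5' covariate, without each array, with array weights and after median centring or quantile normalization. Beyond these, the part of the other array differences was not tested. Against LA, that covariate fit cannot separate the 3' minus 5' difference from treatment, because no LA array overlapped the treated arrays in it.

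Slc3a2 encodes the heavy chain of the heteromeric transporters (4F2hc or CD98), which brings light chains to the cell surface. It stood at 11.85, 11.86 and 12.12 in phenformin arrays and at 12.23, 12.28 and 12.26 in CLA arrays, against 10.10, 10.59 and 10.003 in LA arrays. The treated arrays were all higher than the LA arrays. Slc3a2 was higher in phenformin than in LA by 1.71 ± 0.16 (limma adjusted p = 8.04e-05) and higher in CLA by 2.02 ± 0.16 (2.01e-05), about 3.27-fold and 4.06-fold. The 3 CLA arrays lay above the 3 phenformin arrays without overlap, yet the difference of phenformin from CLA, -0.31 ± 0.16, did not pass (adjusted p = 0.364, 95% interval -0.66 to 0.036).

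Slc7a11 encodes xCT, the light chain that exchanges extracellular cystine for glutamate and so feeds glutathione synthesis. Its brightest probe set had 7.12, 7.36 and 7.09 in phenformin arrays and 7.43, 7.85 and 7.80 in CLA arrays, against 4.53, 4.27 and 3.75 in LA arrays. The groups did not overlap, and in LA 2 of 3 arrays lay above background. It was the most raised transporter of the group in both comparisons, higher by 3.01 ± 0.20 in phenformin (adjusted p = 1.19e-05) and by 3.51 ± 0.20 in CLA (2.56e-06), or 8.03-fold and 11.4-fold. Of 18193 genes, 22 had a larger log2 fold change in phenformin against LA and 19 had a larger one in CLA against LA. Phenformin minus CLA was -0.50 ± 0.20 on this probe set, which did not pass (adjusted p = 0.219, 95% interval -0.94 to -0.068).

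A second probe set of Slc7a11 behaved differently under phenformin. It had 3.55, 3.50 and 3.62 in phenformin arrays, 5.31, 4.59 and 5.27 in CLA arrays and 3.36, 3.69 and 3.60 in LA arrays. It was above background on every CLA array, and on no phenformin or LA array. Against the background level, CLA was at least 2.13-fold higher than LA (adjusted p = 0.000348), and phenformin at least 2.33-fold lower than CLA (adjusted p = 0.00174). No fold is given between phenformin and LA, both of which were not above background. Averaging both probe sets put Slc7a11 at -1.001 ± 0.12 in phenformin minus CLA (adjusted p = 0.000548), and at 1.51 ± 0.12 in phenformin minus LA. Both averages include the probe set that was not above background in phenformin and LA, so their size is partly set by that floor. The call on this gene between the treatments depends on the probe set. The transcripts that each probe set detects were not looked up.

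Promoter windows from RefSeq (GRCm38.p6, 250 bases before to 50 after the start) were found for 6 of the 10 genes, 9 windows in all, and that of Slc7a11 is shown because it alone among the 9 holds 2 matches to an ATF4-type core. The letters TGATGNAA, the core of the C/EBP-ATF response element, were searched on both strands (TTNCATCA on the other). They occur in 3.97% of all 32851 windows, and 0.07% hold 2 or more. In Slc7a11 they stand 66 and 47 bases before the start, on opposite strands, and in Slc1a4 once, 4 bases before it. In the lines that follow, 5' to 3' on the strand of the gene, capitals mark these matches; Slc3a2 is shown as a window of a raised gene with none of these letters.
Slc7a11, chr3:50443564-50443863, minus strand: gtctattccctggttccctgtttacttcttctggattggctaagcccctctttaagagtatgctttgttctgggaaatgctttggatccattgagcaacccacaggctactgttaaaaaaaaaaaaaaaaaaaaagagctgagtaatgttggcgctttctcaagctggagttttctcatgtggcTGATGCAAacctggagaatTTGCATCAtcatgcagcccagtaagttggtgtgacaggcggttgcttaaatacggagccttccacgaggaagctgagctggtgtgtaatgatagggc
Slc1a4, chr11:20332664-20332963, minus strand: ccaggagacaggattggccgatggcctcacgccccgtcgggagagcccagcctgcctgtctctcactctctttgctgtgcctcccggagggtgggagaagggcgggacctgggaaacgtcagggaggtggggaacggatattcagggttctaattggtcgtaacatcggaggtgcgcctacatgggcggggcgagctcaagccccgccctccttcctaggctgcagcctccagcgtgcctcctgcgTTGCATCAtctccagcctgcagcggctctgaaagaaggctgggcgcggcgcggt
Slc3a2, chr19:8713848-8714147, minus strand: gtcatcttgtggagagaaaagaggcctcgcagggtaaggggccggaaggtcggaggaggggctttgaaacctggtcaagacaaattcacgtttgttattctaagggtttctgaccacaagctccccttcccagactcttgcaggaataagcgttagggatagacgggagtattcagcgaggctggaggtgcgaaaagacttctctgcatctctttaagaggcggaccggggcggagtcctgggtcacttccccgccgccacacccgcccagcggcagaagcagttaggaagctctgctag
The core letters TGACNNNGC of the antioxidant response element (GCNNNGTCA on the other strand), to which NRF2 binds, were in 12.4% of all windows and in 4 of the 9 windows here, 1 of Slc7a1, 1 of Slc38a2 and 2 of Slc6a9. No window of the 9 held both motifs. A match is a description of the letters in the window only.

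Slc7a5 encodes LAT1, the light chain that carries leucine and other large neutral amino acids and pairs with Slc3a2. It had 10.92, 10.79 and 11.11 in phenformin arrays and 10.13, 10.30 and 10.29 in CLA arrays, against 8.07, 8.35 and 7.86 in LA arrays. Each phenformin array was above each CLA array, and each CLA array above each LA array. Slc7a5 rose by 2.85 ± 0.15 in phenformin (adjusted p = 3.15e-06) and by 2.14 ± 0.15 in CLA (8.42e-06), or 7.19-fold and 4.41-fold, and 27 of 18193 genes had a larger log2 fold change in phenformin against LA.

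Slc7a5 was the 1 gene of the 10 called between the treatments, where 6.3% of all genes were called, 3.95% higher and 2.35% lower. It was higher in phenformin than in CLA by 0.70 ± 0.15, or 1.63-fold (limma adjusted p = 0.0227). That call was lost without CLA replicate 1 (adjusted p = 0.102), CLA replicate 2 (0.0665), phenformin replicate 1 (0.0722), phenformin replicate 2 (0.0505) or phenformin replicate 3 (0.0795), with differences from 0.62 to 0.78. Slc3a2 and Slc7a11 had values on the other side, -0.31 and -0.50, which did not pass.

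The other light chains known to pair with Slc3a2 were not called. Slc7a6, Slc7a7, Slc7a8 and Slc7a10, which carry cationic or neutral amino acids, had log2 fold changes between -0.32 and 0.11 in phenformin and between -0.47 and 0.05 in CLA against LA (adjusted p from 0.353 to 0.849 and from 0.217 to 0.858). In limma 0 of the 4 passed, and 0 had an unadjusted p under 0.05. Slc7a8 was not above background in any group, nor was Slc7a10 in CLA, so their values do not size a difference. After quantile normalization 1 of the 4 was called in phenformin against LA.

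**Figure D2:**
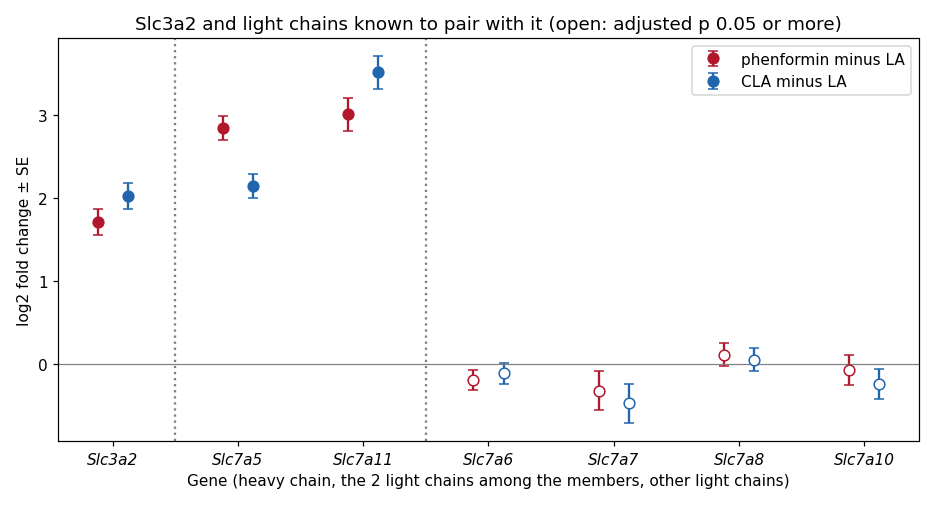
Log2 fold change ± SE (y axis) of phenformin minus LA and of CLA minus LA for the heavy chain Slc3a2, for the light chains Slc7a5 and Slc7a11, and for the other light chains Slc7a6, Slc7a7, Slc7a8 and Slc7a10; open points have an adjusted p of 0.05 or more. Slc7a5 is higher for phenformin (2.85) than for CLA (2.14), and Slc7a11 has 3.01 and 3.51. The other 4 have open points between -0.47 and 0.11, of which Slc7a8 was not above background in any group and Slc7a10 not in CLA.

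Slc7a1 encodes CAT1, the main carrier of arginine and lysine in most cells. It had 10.23, 10.16 and 9.83 in phenformin arrays and 10.24, 10.33 and 9.96 in CLA arrays, against 8.17, 8.23 and 7.74 in LA arrays. The treated groups overlapped each other and lay wholly above LA. Slc7a1 rose by 2.03 ± 0.17 in phenformin (adjusted p = 4.42e-05) and by 2.13 ± 0.17 in CLA (2.26e-05), or 4.08-fold and 4.37-fold. A second probe set gave 2.53 ± 0.11 and 2.49 ± 0.11 (1.91e-06 and 7.17e-07). The dimmest was not above background in LA, where it has only a bound: it was at least 1.03-fold higher in phenformin and at least 1.002-fold higher in CLA, and did not pass (0.0803 and 0.107). In each treated group 2 of 3 arrays measured it above background. Phenformin minus CLA was -0.10 ± 0.17 for the brightest probe set (adjusted p = 0.825, 95% interval -0.47 to 0.27).

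Slc7a3, which encodes CAT3, another cationic amino acid carrier, did not share this. Its single probe set lay close to background, at 4.37, 4.37 and 4.02 in phenformin arrays and at 4.07, 4.49 and 4.26 in CLA arrays, against 4.57, 4.47 and 4.56 in LA arrays. The log2 fold change was -0.28 ± 0.14 in phenformin (adjusted p = 0.226, 95% interval -0.60 to 0.033) and -0.26 ± 0.14 in CLA (0.273, -0.57 to 0.059). The phenformin arrays all lay below the LA arrays, and CLA replicate 2 overlapped LA.

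Slc6a9 encodes GlyT1, the glycine carrier. It had 8.88, 8.68 and 9.14 in phenformin arrays and 9.01, 9.29 and 9.21 in CLA arrays, against 7.30, 7.73 and 7.66 in LA arrays. The treated arrays all lay above the LA arrays. It rose by 1.34 ± 0.16 in phenformin (adjusted p = 0.00034) and by 1.60 ± 0.16 in CLA (9.17e-05), or 2.52-fold and 3.04-fold. Phenformin minus CLA was -0.27 ± 0.16 (adjusted p = 0.449, 95% interval -0.62 to 0.083). Its second probe set rose less, by 0.64 ± 0.15 and 0.62 ± 0.15 (0.0135 and 0.0153). Those 2 calls of the second probe set were lost under the 3' minus 5' covariate (limma adjusted p = 0.306 and 0.259) and without LA replicate 1 (0.0513 and 0.0583); the CLA call was also lost without CLA replicate 1 (0.0636), and the phenformin call without phenformin replicate 1 (0.0513) and after quantile normalization (0.065).

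Slc1a4 encodes ASCT1, a carrier of serine, alanine and cysteine. Its brightest probe set had 7.94, 8.10 and 7.66 in phenformin arrays and 7.99, 7.85 and 7.59 in CLA arrays, against 7.16, 6.95 and 7.16 in LA arrays. There was no overlap with LA, and the treated groups overlapped each other. The log2 fold change was 0.81 ± 0.15 in phenformin (adjusted p = 0.00421) and 0.72 ± 0.15 in CLA (0.00779). Its further probe sets rose more, by 1.70 ± 0.12 and 1.37 ± 0.12 in phenformin and by 1.23 ± 0.12 and 1.06 ± 0.12 in CLA (adjusted p from 1.53e-05 to 0.000284). The brighter of these stood at 8.17, 8.04 and 8.18 in phenformin arrays against 7.64, 7.64 and 7.68 in CLA arrays, a difference of 0.47 ± 0.12 (adjusted p = 0.0451). That call was lost without any one of LA replicate 1, CLA replicates 1, 2 and 3 and phenformin replicates 1, 2 and 3 (adjusted p from 0.0521 to 0.147), and the brightest probe set gave 0.091 ± 0.15 (adjusted p = 0.819). Without LA replicate 1 the difference of the further probe set itself stayed at 0.47. Its call was also lost after quantile normalization (limma adjusted p = 0.09), without dim probe sets (0.0524), with an intensity trend (0.0946) and under the 3' minus 5' covariate (0.0545).

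Slc1a5 encodes ASCT2, which carries glutamine. Its brightest probe set had 10.92, 10.66 and 11.32 in phenformin arrays and 10.57, 10.52 and 11.05 in CLA arrays, against 10.68, 11.11 and 10.48 in LA arrays. All 3 groups overlapped, and phenformin minus CLA was 0.25 ± 0.22 (adjusted p = 0.618). The log2 fold change was 0.21 ± 0.22 in phenformin (adjusted p = 0.589, 95% interval -0.27 to 0.69) and -0.040 ± 0.22 in CLA (0.927, -0.52 to 0.44). A dimmer probe set had 8.06, 7.38 and 6.78 in phenformin arrays, 6.78, 6.96 and 5.99 in CLA arrays and 5.54, 5.35 and 6.94 in LA arrays. LA replicate 3 overlapped the phenformin arrays, and the difference of 1.46 ± 0.44 (adjusted p = 0.0461) was lost without LA replicate 1 (0.146), LA replicate 2 (0.152), CLA replicate 1 (0.0725), CLA replicate 2 (0.0619), phenformin replicate 1 (0.172) or phenformin replicate 2 (0.113). Without CLA replicate 1 or 2 the difference itself stayed at 1.46. That call was also lost in a fit of the 2 groups compared (limma adjusted p = 0.0842), after quantile normalization (0.0919) and under the 3' minus 5' covariate (0.096). The mean of both probe sets was called in phenformin against LA, at 0.84 ± 0.17 (adjusted p = 0.00548).

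Slc38a2 and Slc38a1 encode SNAT2 and SNAT1, sodium-coupled carriers of small neutral amino acids, and Slc38a2 is the one known for its rise when amino acids are withdrawn. Slc38a2 had 11.66, 11.77 and 11.59 in phenformin arrays and 11.80, 11.63 and 11.90 in CLA arrays, against 11.28, 11.24 and 10.38 in LA arrays. The treated arrays lay above LA, where replicate 3 was the lowest. The log2 fold change was 0.71 ± 0.21 in phenformin (adjusted p = 0.0473) and 0.81 ± 0.21 in CLA (0.0267), and it was 0.41 ± 0.12 and 0.51 ± 0.12 without LA replicate 3 (0.0467 and 0.0178). The phenformin call was lost without any one of the CLA or phenformin arrays (adjusted p from 0.057 to 0.144), and also in a fit of the 2 groups compared (0.0968), after median centring (0.0605), after quantile normalization (0.0762), with an intensity trend (0.0521) and under the 3' minus 5' covariate (0.15). Without a CLA array the phenformin difference itself stayed at 0.71, and only its SE, which draws on the spread in all groups, changed. The CLA call was lost without any one of the CLA arrays (0.0528 to 0.088), in a fit of the 2 groups compared (0.0634) and with that covariate (0.0878). A second probe set gave 0.61 ± 0.13 in phenformin and 0.54 ± 0.13 in CLA (0.0111 and 0.0189), the second of these lost without LA replicate 1 (0.0579), CLA replicate 1 (0.0738) or CLA replicate 2 (0.0573). With the 3' minus 5' covariate neither was called (0.107 and 0.11), and after quantile normalization the phenformin value was not (0.0535). The dimmest probe set did not pass, at 0.11 in both.

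Slc38a1 had 5.30, 5.15 and 5.30 in phenformin arrays and 5.69, 5.17 and 5.30 in CLA arrays, against 5.27, 5.30 and 4.998 in LA arrays. The groups overlapped. Phenformin minus CLA was -0.13 ± 0.15 (adjusted p = 0.716). Its log2 fold change was 0.063 ± 0.15 in phenformin (adjusted p = 0.844, 95% interval -0.27 to 0.40) and 0.20 ± 0.15 in CLA (0.442, -0.14 to 0.53), and its second probe set was not above background in any group.

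**Figure D3:**
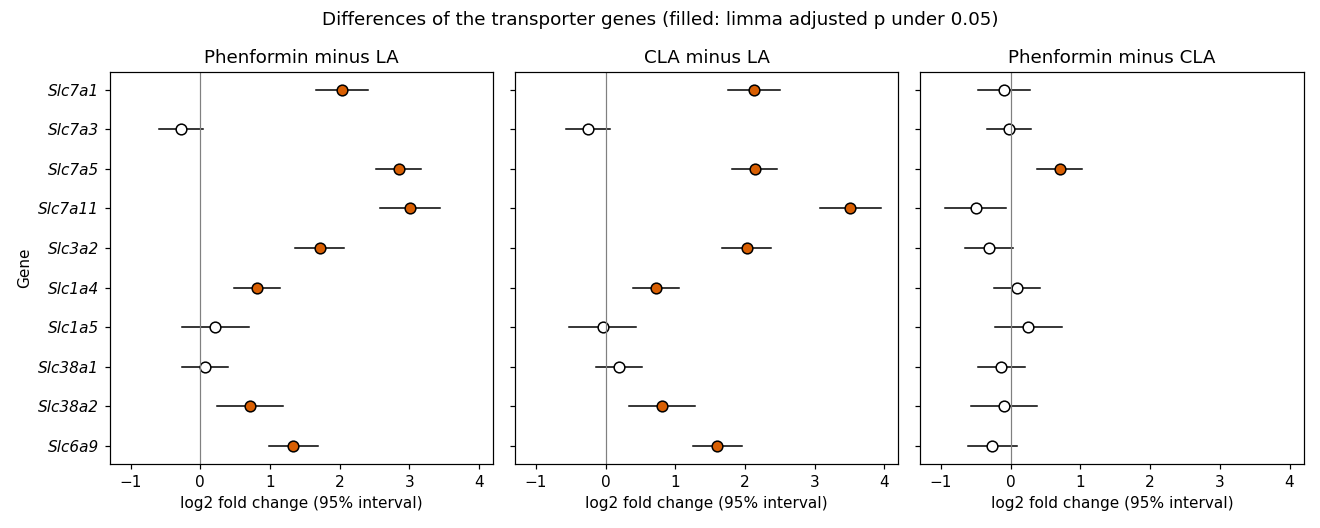
Log2 fold change (x axis) with its 95% interval for the 10 transporter genes (y axis) in phenformin minus LA, CLA minus LA and phenformin minus CLA; filled points have a limma adjusted p under 0.05. In the comparisons with LA 7 genes are filled and lie right of 0, and between the treatments Slc7a5 alone is filled, at 0.70.

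Between the treatments, 1 of the 10 genes rose in phenformin against CLA and 0 fell, and 2 had an unadjusted p under 0.05, Slc7a5 and Slc7a11. The arrays of the treatments did not overlap for 3 of the 10 genes, against 27.1% of all genes. The median of the 10 differences was -0.10, against -0.032 over all genes. For Slc7a1, Slc1a4, Slc38a2, Slc7a3 and Slc38a1 the 95% intervals of phenformin minus CLA lay between -0.57 and 0.42. Those of Slc1a5 (-0.23 to 0.73), Slc3a2 (-0.66 to 0.036), Slc6a9 (-0.62 to 0.083) and Slc7a11 (-0.94 to -0.068) reached further.

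Over all 20 probe sets of the 10 genes, 13 were called in phenformin against LA, where 16.4% of all probe sets were called, 13 in CLA against LA, where 16.5% were, and 3 in phenformin against CLA, where 4.55% were. Of the 10 probe sets beside the brightest, 6 rose in each comparison with LA and 0 fell. Their call was the same as that of the brightest probe set for 6 of 10 in phenformin against LA, 8 of 10 in CLA against LA and 8 of 10 in phenformin against CLA, and 0 were called in the opposite direction. Probe sets of a gene share its transcripts and are not replicates.

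**Figure D4:**
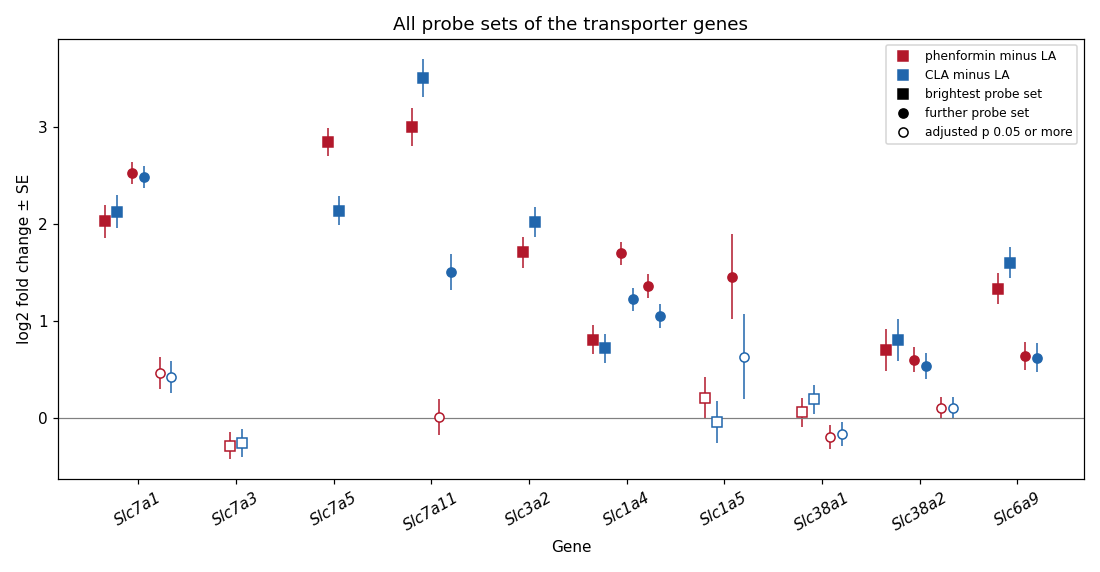
Log2 fold change ± SE (y axis) of all 20 probe sets of the 10 transporter genes (x axis), for phenformin minus LA and CLA minus LA; squares are the brightest probe set of a gene, circles the further ones, and open symbols have an adjusted p of 0.05 or more. Points of probe sets not above background in a group compared, among them the further one of Slc7a11 and the dimmest of Slc7a1, are measured differences that do not size a fold. The further probe sets of Slc1a4 lie above its brightest one.

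Of 39 other amino acid transporters listed, 37 were measured, and 7 of these were not above background in any group. In phenformin against LA 3 rose and 1 fell, or 10.8% of the 37, beside 18.8% of all genes called. In CLA against LA 4 rose and 4 fell, or 21.6%, beside 20.2% of all genes. Their median log2 fold changes were -0.074 and -0.12, against 0.01 and 0.049 over all genes. Slc38a4, a carrier of the same family as Slc38a2, rose by 1.79 ± 0.16 in phenformin and by 1.94 ± 0.16 in CLA (adjusted p = 6.51e-05 and 2.67e-05). Slc38a7, a glutamine carrier, rose by 0.73 ± 0.19 and 1.02 ± 0.19 (0.0223 and 0.00387). Its phenformin call was lost without LA replicate 1 (0.086), phenformin replicate 1 (0.0939) or phenformin replicate 3 (0.0763), in a fit of the 2 groups compared (0.0543), after quantile normalization (0.119) and under the 3' minus 5' covariate (0.347), and its CLA call with that covariate (0.103). In phenformin against LA, Slc16a10, a carrier of aromatic amino acids, rose by 0.94 ± 0.13 (0.000748) and Slc38a9, a lysosomal arginine sensor, fell by 0.815 on the log2 scale (SE 0.12, 0.00106). Over the mean of all their probe sets these were 0.19 (0.232) and -0.098 (0.612). In CLA against LA, the glutamate carrier Slc1a3 fell by 1.53 (SE 0.22, 0.000942) and the neutral amino acid carrier Slc43a2 rose by 0.91 ± 0.14 (0.00142). The CLA count of 8 called genes was 5 without CLA replicate 2. Between the treatments 1 rose and 1 fell: Slc36a2, a proton-coupled carrier of glycine and proline, was higher in phenformin by 0.83 ± 0.14 (0.00789), and Slc43a2 was -0.86 ± 0.14 (0.00739).

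Genes of the ATF4 pathway rose beside the transporters. Of 25 measured, 18 rose and 0 fell in phenformin against LA (median 1.32), where 18.8% of all genes were called (median 0.01). In CLA against LA 14 rose and 0 fell (median 1.02), where 20.2% of all genes were called (median 0.049). This list, like those of the other transporters and of the NRF2 response, was chosen with earlier results of these data known. In phenformin the stress factor Ddit3, the glutathione-degrading enzyme Chac1, the mitochondrial folate enzyme Mthfd2 and the eIF2 phosphatase subunit Ppp1r15a rose by 2.9986 ± 0.12, 2.44 ± 0.10, 2.48 ± 0.11 and 3.28 ± 0.15. In CLA the factor Atf3, with Ppp1r15a, Mthfd2 and Ddit3, rose by 4.45 ± 0.15, 2.88 ± 0.15, 2.0002 ± 0.11 and 1.696 ± 0.12 (limma adjusted p from 1.35e-07 to 1.18e-05 over both comparisons). Between the treatments 5 of the 25 rose and 1 fell in phenformin against CLA, where 6.3% of all genes were called. That count of 6 called genes was 3 without CLA replicate 1, phenformin replicate 1 or phenformin replicate 2. Chac1 and Ddit3 were higher in phenformin by 1.36 ± 0.10 and 1.30 ± 0.12 (0.000129 and 0.000314), and Atf3 had -1.19 ± 0.15 (0.00233). The ATF4-induced pseudokinase gene Trib3 was higher by 1.12 ± 0.23 (0.0219), a call lost without any one of CLA replicates 1 and 2 or the phenformin arrays (0.0543 to 0.101).

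Slc7a11 is tied to the NRF2 response and glutathione metabolism as the cystine supplier. Of 14 measured genes of these processes, 6 rose and 1 fell in phenformin against LA (median 0.39). In CLA against LA 10 rose and 0 fell (median 1.15). Over all genes 18.8% and 20.2% were called, with medians of 0.01 and 0.049. The heme oxygenase Hmox1 and the factor Nfe2l2 (NRF2) rose by 3.53 ± 0.16 and 1.32 ± 0.12 in phenformin and by 3.76 ± 0.16 and 1.53 ± 0.12 in CLA (adjusted p from 4.76e-07 to 9.1e-05). Cth, which makes cysteine, and the iron exporter Slc40a1 rose by 1.93 ± 0.13 and 1.14 ± 0.17 in phenformin (1.66e-05 and 0.00145). The sulfiredoxin Srxn1 and the glutathione synthesis subunit Gclm rose by 3.22 ± 0.27 and 2.56 ± 0.23 in CLA (3.02e-05 and 4.99e-05). Between the treatments 1 rose and 6 fell in phenformin against CLA: Srxn1, the thioredoxin reductase Txnrd1 and the glutathione reductase Gsr had -2.82 ± 0.27, -1.34 ± 0.21 and -0.86 ± 0.15 (0.000371, 0.00589 and 0.0107), while Slc40a1 had 1.47 ± 0.17 (0.00136). That count of 7 called genes stood beside 6.3% of all genes called. It was 4 without CLA replicate 1 or phenformin replicate 2 and 3 without CLA replicate 2. Gsr lost its call without CLA replicate 2 (limma adjusted p = 0.0507) or phenformin replicate 2 (0.0545).

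The genes with profiles nearest to the transporters were sought for Slc7a11 and Slc7a5, which had the widest ranges of group means, 3.51 and 2.85. Likeness was the root mean square distance between centred log2 values over the 9 arrays. The values were not scaled, so the distance also reflects how far each gene rose. Nearest to Slc7a11 were the transcription factor Klf4 at 0.18, the metalloproteinase inhibitor Timp1 at 0.28, the chemokine Ccl7 at 0.29, the signalling adaptor Eps8 at 0.32 and Hmox1 at 0.35. Nearest to Slc7a5 were the kinase Plk2 at 0.19, the deubiquitinase Stambpl1 at 0.20, Mthfd2 at 0.21, the exchange factor Arhgef2 at 0.27 and the adhesion molecule Alcam at 0.28. Among the 10 transporters themselves, Slc3a2 lay nearest to Slc6a9 at 0.24 and to Slc7a1 at 0.26, and at 0.51 and 0.71 from its light chains Slc7a5 and Slc7a11.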

How the data were processed

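Total RNA of 9 samples (Trizol) was made into biotinylated cRNA and hybridised to Affymetrix mouse arrays, per the protocols in the labels. The deposited table gives 45101 probe sets on the log2 scale, and the submitters' processing notes name R 2.9.0, RMA and limma. The authors also deposited limma tables of the 3 comparisons, which hold log2 fold changes, p-values and a score each for the log odds and the moderated t, per the file headers. In the authors' deposited tables the log2 fold changes differed from the present fit by at most 4.6e-08, and all 20 member probe sets had the same call.

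The 64 control probe sets were left out. GEO's platform annotation, which can be old, gave 1 symbol for 34945 of the rest, more than 1 for 932 and none for 9160, and only those with 1 symbol were named. Limma 3.58.1 in R 4.3.3 was fitted (lmFit, eBayes) with 3 groups and no covariate. Precision is limited by the number of arrays: with 3 against 3, exact permutation could not give a p under 0.1.

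The text names all 10 members. From each further list it names up to 4 genes a comparison with the smallest adjusted p among those called, and for the 2 members with the widest ranges the 5 nearest genes. The members and lists were chosen with earlier results of these data known. Of the lists of 39, 26 and 16 genes, 37, 25 and 14 were measured, and the others are not analysed here. Marker counts stand beside 18.8% of all genes called in phenformin against LA, 20.2% in CLA against LA and 6.3% between the treatments. Counts near those shares are not read as results about a cell type. Markers of endothelium had 0 of 5 called in each comparison. For muscle 1 of 5 rose in phenformin and in CLA against LA (0 of 5 called between the treatments). For macrophages 2 of 8 fell in phenformin and 1 of 8 rose in CLA against LA, and 1 of 8 fell in phenformin against CLA. For adipocytes 1 of 7 rose in phenformin, 1 of 7 rose and 1 fell in CLA against LA, and 0 of 7 were called between the treatments. For preadipocytes and fibroblasts 1 of 8 fell in phenformin against CLA. Alternatives were quantile normalization, median centring, a fit restricted to the 2 groups compared, leaving out each array, a replicate block, a filter on dim probe sets, an intensity trend, array weights, a 2-fold minimum, means of all probe sets of a gene, and as covariate the pyruvate carboxylase control's 3' minus 5' difference. No batch was used, since the labels name none. Python 3.11.15, pandas 2.3.3 and matplotlib 3.10.9 read promoters and drew the plots.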

Additional observations from a re-analysis of the deposited data

How the results depend on the processing

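Few arrays limit what can be called, and the LA arrays serve both comparisons with LA. Over 19 alternatives, Slc7a11, Slc7a5, Slc7a1, Slc3a2 and Slc6a9 stayed called against LA, while their sizes moved. Slc7a11 ranged from 1.51 to 3.18 in phenformin and from 2.51 to 3.68 in CLA. Slc6a9 ranged from 0.989, under 2-fold, to 1.44 in phenformin and from 1.11 to 1.69 in CLA. The lowest values of Slc7a5, Slc7a1 and Slc3a2 lay between 1.395 and 2.613. The covariate among the alternatives did not overlap between LA and treated arrays, so that fit cannot separate it from treatment. The number of the 10 transporters called ranged, with each array left out, from 6 to 7 in phenformin against LA, from 6 to 7 in CLA against LA and from 0 to 1 between the treatments, where it was 0 with a 2-fold minimum and 2 over means of probe sets. The replicate block gave 6, 7 and 1 transporters and 7299, 7486 and 1761 probe sets in phenformin against LA, CLA against LA and phenformin against CLA. It ended the call of Slc38a2 in phenformin (adjusted p = 0.0564), of the dimmer Slc1a5 probe set in phenformin (0.0787) and of the further Slc1a4 probe set between the treatments (0.083). Deviations of same-numbered arrays correlated between -0.29 and 0.58, over 0.1 in 2 of 9 pairs. Since 3 of 9 arrays correlated best with their own number, the numbers were not taken to pair the arrays. Same-numbered CLA and phenformin arrays had 0.29, 0.09 and 0.58, and other pairs of these groups from -0.53 to 0.39. The pyruvate carboxylase 3' minus 5' difference fell from replicate 1 to replicate 3 in each group. Whether the numbers mark arrays handled together was not tested.

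Without each array in turn, called probe sets ranged from 4954 to 7620 in phenformin against LA, 4788 to 8313 in CLA against LA and 820 to 3085 between the treatments. Array weights gave 11123, 11273 and 4541, a 2-fold minimum 2534, 2613 and 643, and the covariate 3646 in phenformin and 4900 in CLA against LA. Of called probe sets 69.8%, 61.4% and 63.1% were higher, against 48.8%, 46.6% and 52.4% after quantile normalization, with the cause not tested. Called genes among the other amino acid transporters ranged from 3 to 6, 5 to 8 and 2 to 3 with each array left out. They were 7 after quantile normalization, 10 with array weights and 1 at 2-fold in phenformin against LA, 3 at 2-fold and 4 with the covariate in CLA against LA, and between the treatments 4 after quantile normalization, without dim probe sets, with array weights or with the covariate and 0 at 2-fold. ATF4 pathway genes ranged from 17 to 20, 12 to 17 and 3 to 7, and NRF2 and glutathione genes from 6 to 7, 9 to 10 and 3 to 7, with 4 between the treatments at 2-fold.

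Values that turned sign had not passed, and none passed after turning. With each array left out, Slc1a5 in CLA against LA ranged from -0.21 to 0.14, and Slc38a1 in phenformin against LA from -0.034 to 0.12. Between the treatments these ranges were -0.24 to 0.016 for Slc38a1, -0.017 to 0.21 for Slc1a4, -0.21 to 0.022 for Slc7a1 and -0.13 to 0.090 for Slc7a3. Means of probe sets gave 0.30 for Slc1a5 in CLA and -0.067 for Slc38a1 in phenformin against LA, which includes a probe set not above background. Quantile normalization gave -0.11 for Slc1a5 in phenformin against LA and, between the treatments, -0.001 for Slc1a4 and 0.027 for Slc7a3. The covariate gave -0.24 for Slc1a5 in phenformin against LA, array weights -0.017 for Slc38a1 in phenformin against LA and 0.10 for Slc7a3 between the treatments, and median centring 0.013 for Slc7a3 between the treatments. For all of these the cause was not tested.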
